A study of Mus musculus with 28 samples.

Results

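The clustered protocadherins are single-pass transmembrane cadherins whose genes stand side by side in 3 groups, alpha, beta and gamma. All genes of the deposited tables whose symbol places them in one of these groups were taken, which gave 58 of the 45706 genes listed: 14 alpha, 22 beta and 22 gamma members. They were followed in mIMCD-3 cells, an epithelial cell line made from the renal inner medullary collecting duct of a mouse with an SV40 transgene, in 28 RNA-seq libraries that fall into 7 groups of 4. The groups were the polyclonal wild-type (WT) line, the monoclonal line WT5, which was grown from a single sorted cell of it, and subclones 1 to 5, each grown from a single sorted cell of WT5. All cells were wild type, with no edit or treatment named in the labels, and RNA was taken 4 days after the cultures had become fully confluent. Each monoclonal line and each subclone is therefore 1 clone, and the 4 libraries of a group do not sample other clones. The sources call the 4 libraries biological replicates in one place and technical in another, so p-values here measure the spread between these libraries, which may be technical.

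In neurons each cell uses a small set of these isoforms, and the extracellular cadherin repeats of the proteins bind the same isoform on a facing cell. An alpha or gamma mRNA joins 1 variable exon, read from its own promoter, to constant exons that all members of the group share. A beta mRNA comes from a single exon. The variable promoters are known to be silenced by DNA methylation and to be contacted by distal enhancers through loops held by CTCF and cohesin, while the last genes of the alpha and gamma groups, called C-type, are used more evenly across neurons. In kidney epithelium these genes are much less studied.

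This structure decides how well each member can be measured. On chromosome 18 of the mouse build GRCm38 the alpha cluster spans chr18:36930184-37187661, the beta cluster chr18:37264938-37524479 and the gamma cluster chr18:37661793-37841873. In the gene annotation used here, the longest coding transcript of each alpha and gamma member had 4 exons, and exons shared with other members made up 48.6% to 54.9% of it for alpha and 41.7% to 45.9% for gamma. The longest coding transcript of each beta member had 1 exon, which no other member shared. Some members also have shorter transcripts with other exon numbers. Of all 50-base stretches of a member's longest transcript, the median share that also occurred in another gene was 4.45% for beta (0% to 12%), 45.15% for gamma (20.4% to 65.9%) and 60.65% for alpha (48.2% to 97.5%). The highest shares were those of Pcdha4 and, within gamma, of Pcdhga4. Reads from such stretches were divided between genes by the authors' model, so alpha and gamma values are less certain than beta values. Pcdhb21 and Pcdhb22 overlap by annotation and are uncertain for that reason too.

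The values are TPM, a share of all transcripts that is scaled per length and keeps no depth, so the precision behind a single low value is unknown. In the polyclonal libraries 18681 to 19272 genes had a value above 0, against 16270 to 17004 in the libraries of WT5 and the subclones. Log-scale correlations between libraries of a group were 0.988 in polyclonal WT and 0.993 to 0.995 elsewhere. The polyclonal libraries were read as 50-base single ends and those of WT5 as 150-base paired ends, at another time, so line and sequencing run cannot be told apart in that comparison. In all 7 groups the line expressed the epithelial markers Epcam (465 to 603 TPM as group means) and Cdh1 (60.8 to 145 TPM). Aqp2, the water channel of collecting duct principal cells, was listed at 0 in all 28 libraries, and Gata3 was lower in WT5 than in polyclonal WT (log2 difference -4.86, limma, adjusted p = 2.07e-08). By the rule given below, 10 of 11 epithelial markers were tested in this comparison, 2 were called higher and Gata3 alone lower. Their median difference was 0.76, and 33.1% of all genes were called. The summed TPM of 11 epithelial markers was 1844 to 2133 in polyclonal WT, 3331 to 3413 in WT5 and 2103 to 2664 in the subclones. Of 4 neuronal markers, Snap25 and Rbfox3 did not exceed 0.02 TPM in any library, whereas Syp and Map2 were above 0 in all. The summed neuronal markers, mostly Map2, were at 5.14 to 6.37 TPM in polyclonal WT, 1.43 to 2.91 in WT5 and 1.14 to 4.65 in the subclones. Map2, a microtubule-associated protein, was lower in WT5 than in polyclonal WT (log2 difference -1.36, limma, adjusted p = 9.18e-05), and it differed among the subclones with a gap of 1.89 (limma F test, adjusted p = 2.13e-08). Summed fibroblast, endothelial, leukocyte and podocyte markers did not exceed 2.12, 0.29, 4.68 and 0.04 TPM. The part of any of these in the results below was not tested.

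The alpha cluster was close to silent in every library. The summed TPM of its 14 members was at most 0.11 in any of the 28 libraries, and no member reached a group mean of 0.1 TPM. In all, 7 members were above 0 in at least 1 library, and none was above 0 in all 4 libraries of any group. Of the C-type genes, Pcdhac1 was listed at 0 in all 28 libraries and Pcdhac2 was above 0 in 1 library of subclone 3, at 0.02 TPM. No alpha member could be tested.

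The beta signal was spread over more members in the polyclonal libraries than in those of WT5 and its subclones, which were also sequenced apart from them. The summed beta TPM was 25.8, 25.1, 25.8 and 28.4 in the polyclonal libraries and 6.67, 6.98, 6.48 and 7.43 in those of WT5, with group means of 26.2 ± 1.44 and 6.89 ± 0.415 (SD, n = 4). In polyclonal WT 7 of the 22 members had a mean of at least 1 TPM, and in WT5 and in each subclone 1 did, Pcdhb22. The 7 were Pcdhb14, Pcdhb15, Pcdhb16, Pcdhb17, Pcdhb18, Pcdhb20 and Pcdhb22, which all lie in the downstream part of the cluster, from the 14th to the 22nd gene. In a bulk library, fewer cells using an isoform and less RNA of it per cell cannot be told apart.

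**Figure D1:**
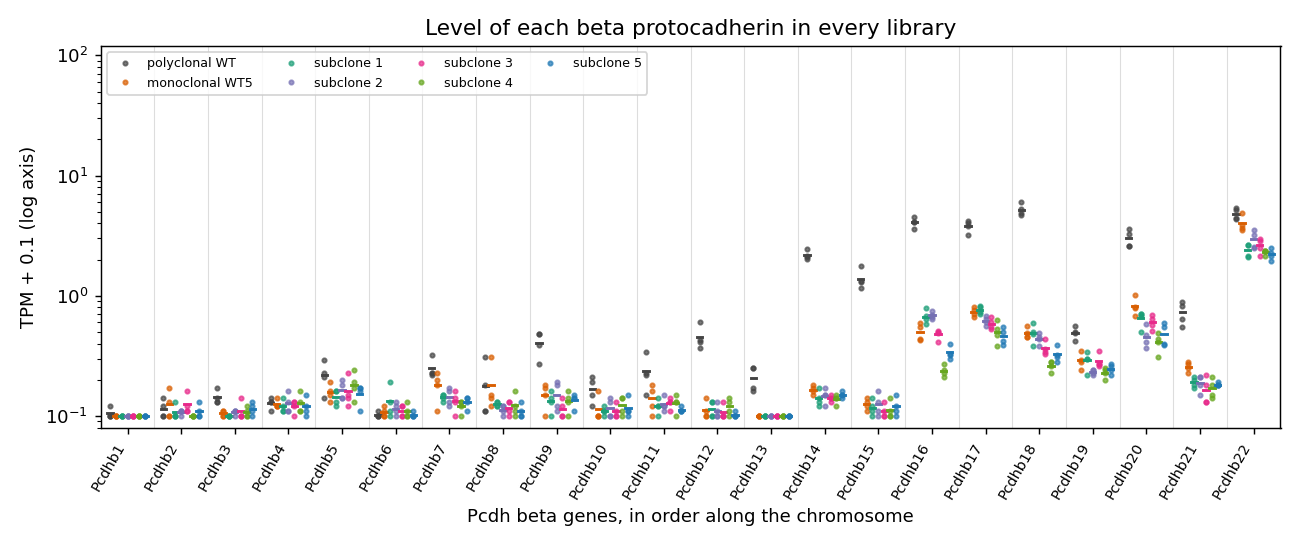
TPM plus 0.1 on a log axis for each of the 22 beta genes, in order along the chromosome, with a point for each library, colours for the 7 groups and a short bar at each group mean. The polyclonal mean stands above the other means from Pcdhb14 to Pcdhb20, whereas at Pcdhb22 all libraries lie within 1.84 to 5.3 TPM.

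WT5 was set against polyclonal WT to ask which isoforms a line from 1 cell keeps of those its parent uses. Differences were tested with limma on log2(TPM + 0.1), and a gene was called when its Benjamini-Hochberg adjusted p over all genes tested was below 0.01 and its log2 difference above 1 in size. Under this rule 33.1% of all 17226 genes tested were called, 15.2% as higher and 17.9% as lower in WT5. Of the 22 beta members 12 passed the filter on low values, a mean of at least 0.1 TPM over the libraries compared, and several did so through the polyclonal libraries alone. Of these, 9 were called lower in WT5, none was called higher, 3 were not called and 10 were not tested. The median difference of the 12 was -1.94 against 0.09 over all genes tested, a value that the filter itself draws towards members high in one line.

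Pcdhb18 was the most abundant beta isoform of the polyclonal line, at 5.16, 4.63, 4.77 and 5.88 TPM, and was at 0.35, 0.46, 0.35 and 0.39 TPM in WT5. The log2 difference was -3.42 ± 0.14 (SE; limma, adjusted p = 8.21e-09). The groups do not overlap, but the same held for 70.8% of all genes tested between these lines. That share applies to each lack of overlap of a member between them below. Pcdhb14 was at 2.05, 1.99, 1.92 and 2.37 TPM in polyclonal WT and at 0.08, 0.06, 0.05 and 0.07 TPM in WT5, a log2 difference of -3.72 ± 0.17 (SE; limma, adjusted p = 2.12e-08). This isoform was almost undetected in the clone. Pcdhb15, its neighbour, was at 1.22, 1.07, 1.21 and 1.67 TPM and fell to 0.04, 0.03, 0.01 and 0.02 TPM, with a log2 difference of -3.47 (limma, adjusted p = 2.05e-07). Pcdhb16 was at 4.01, 3.48, 4.03 and 4.42 TPM in polyclonal WT and at 0.33, 0.45, 0.49 and 0.34 TPM in WT5, a log2 difference of -3.03 (limma, adjusted p = 4.71e-08). Pcdhb14, Pcdhb15, Pcdhb16 and Pcdhb18, like Pcdhb17 and Pcdhb20 below, were lower in every WT5 library than in any polyclonal one. Each was above 0 in all 4 WT5 libraries.

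Pcdhb17 was at 4.1, 3.71, 3.09 and 3.94 TPM in the polyclonal libraries and at 0.6, 0.56, 0.66 and 0.7 TPM in WT5, a log2 difference of -2.38 (limma, adjusted p = 1.07e-07). Pcdhb20 was at 2.52, 2.49, 3.15 and 3.48 TPM and at 0.69, 0.92, 0.71 and 0.58 TPM, a log2 difference of -1.87 (limma, adjusted p = 3.65e-06). The other 3 called members were low in both lines: Pcdhb9, Pcdhb12 and Pcdhb21 had polyclonal means of 0.305 ± 0.0995, 0.355 ± 0.106 and 0.627 ± 0.159 TPM (SD, n = 4) and WT5 means of 0.05 ± 0.0356, 0.0125 ± 0.0189 and 0.158 ± 0.0222 TPM. Their log2 differences were -1.43, -2.003 and -1.48.

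Pcdhb22, the last gene of the cluster, was not called. It was at 4.3, 5.1, 5.3 and 4.23 TPM in polyclonal WT and at 3.56, 3.81, 3.45 and 4.82 TPM in WT5, so the groups overlapped. The log2 difference was -0.27 ± 0.13 (SE; limma, adjusted p = 0.0731). It took 18.1% of the summed beta TPM in polyclonal WT and 56.5% in WT5. The effective number of isoforms, the exponential of the Shannon entropy of the members' shares, is the number of equally used isoforms that would give the same evenness. For beta it was 8.99 ± 0.212 in polyclonal WT and 5.12 ± 0.912 in WT5 (SD, n = 4), and the libraries of the 2 groups did not overlap.

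**Figure D2:**
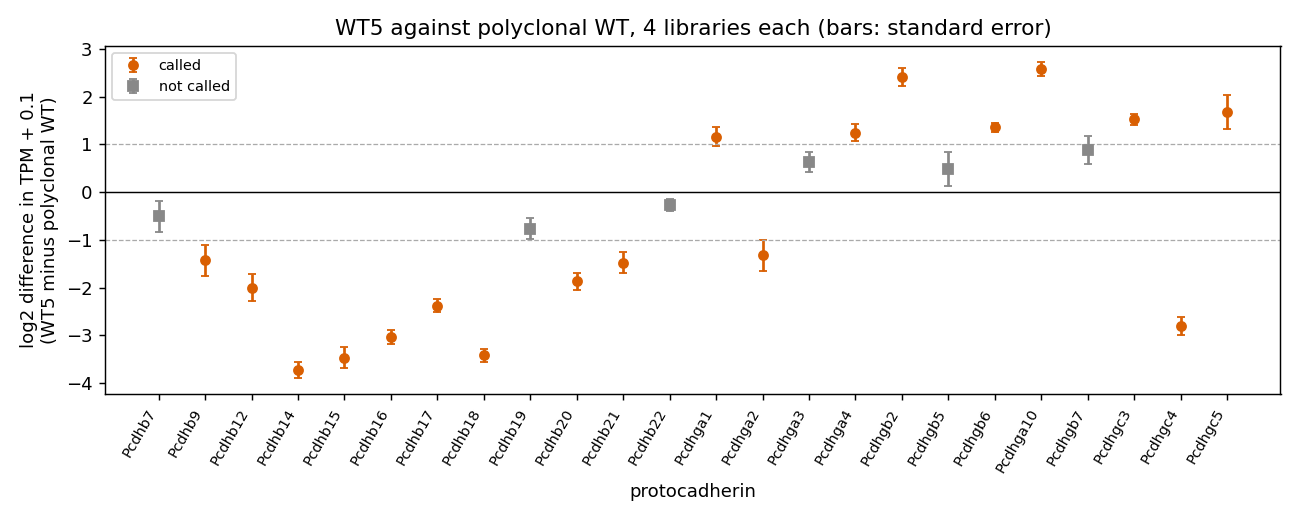
Log2 difference in TPM plus 0.1 between WT5 and polyclonal WT for the 24 members tested, with standard errors, where circles are called members, squares are members not called and dashed lines mark a difference of 1 in either direction. The beta members lie below 0, down to -3.72 at Pcdhb14, and most gamma members lie above it, up to 2.58 at Pcdhga10, with Pcdhgc4 at -2.80.

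The gamma cluster as a whole stood higher in every WT5 library than in any polyclonal one. Its summed TPM was 33.9, 34.6, 36.8 and 37.5 in the polyclonal libraries and 64.1, 63.4, 65.7 and 64.3 in WT5. Without Pcdhgc4 the means were 20.5 ± 3.40 and 62.2 ± 0.97 TPM (SD, n = 4). Of the 22 gamma members 12 were tested, 7 were called higher and 2 lower in WT5, 3 were not called and 10 were not tested. Of all genes tested, 33.1% were called, 15.2% as higher and 17.9% as lower. The median of the 12 was 1.20 against 0.09 over all genes. As for beta, some passed the filter on low values through a single line, which can move this median. In polyclonal WT 4 members had a mean of at least 1 TPM and in WT5 7 did, and those 7 included the 4.

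Pcdhgc3, a C-type isoform, was the most abundant gamma isoform of WT5. It was at 8.15, 8.48, 12.37 and 10.36 TPM in polyclonal WT and at 26.62, 27.95, 29.57 and 28.25 TPM in WT5, a log2 difference of 1.52 ± 0.12 (SE; limma, adjusted p = 1.08e-06). Every WT5 library stood above every polyclonal one. Pcdhgb6 was at 5.46, 5.61, 7.01 and 5.68 TPM in polyclonal WT and at 16.32, 14.84, 14.54 and 15.31 TPM in WT5, a log2 difference of 1.35 ± 0.09 (SE; limma, adjusted p = 2.42e-07). Pcdhga10, which lies next to Pcdhgb6 in the cluster, was at 1.61, 1.23, 2.06 and 1.41 TPM and at 9.15, 10.06, 10.82 and 9.17 TPM, a log2 difference of 2.58 ± 0.15 (SE; limma, adjusted p = 9.76e-08). Pcdhgb2 was at 0.89, 0.61, 0.99 and 0.51 TPM in polyclonal WT and at 4.55, 4.5, 3.9 and 4.32 TPM in WT5, a log2 difference of 2.42 ± 0.19 (SE; limma, adjusted p = 1.11e-06). These 2 variable isoforms differed most among the gamma members that rose. Of the 50-base stretches of Pcdhgb2 54.6% occur in other genes, and of its 150-base stretches 47.1%. The rise of Pcdhgb2 and its calls below are less certain for that reason.

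Pcdhga1 and Pcdhga4, at the upstream end, rose by smaller amounts on the log2 scale. Pcdhga1 was at 0.5, 0.37, 0.63 and 0.73 TPM in polyclonal WT and at 1.41, 1.31, 1.34 and 1.28 TPM in WT5, a log2 difference of 1.16 (limma, adjusted p = 0.000332) that was 0.97 and no longer called once each library was centred on its median. Pcdhga4 was at 0.51, 0.41, 0.58 and 0.72 TPM and at 1.46, 1.47, 1.36 and 1.43 TPM, a log2 difference of 1.24 (limma, adjusted p = 8.72e-05). Of its 50-base stretches 65.9% occur in other genes, and of its 150-base stretches 62.5%, so this and its other calls are uncertain. The C-type isoform Pcdhgc5 had means of 0.115 ± 0.0995 and 0.542 ± 0.142 TPM (SD, n = 4) and a log2 difference of 1.67 (limma, adjusted p = 0.0015). Pcdhga2 was called lower, at -1.33 (limma, adjusted p = 0.00368), from a mean of 0.32 TPM in polyclonal WT. Without polyclonal replicate 3 its adjusted p was 0.0109. Pcdhga3, with means of 0.285 and 0.495 TPM, was not called (limma, adjusted p = 0.0185).

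Pcdhgc4 was the only gamma member above 1 TPM that was lower in WT5. This C-type isoform was at 15.87, 16.64, 11.65 and 16.79 TPM in polyclonal WT, 42.8% of the summed gamma TPM, and at 2.35, 1.44, 2.01 and 2.7 TPM in WT5, 3.3% of it. The log2 difference was -2.80 ± 0.19 (SE; limma, adjusted p = 3.26e-07). Besides its full-length transcript of 5024 bases, the annotation gives this gene a coding transcript of 2272 bases of which 2119 lie in exons shared with other gamma members, so that reads of the constant exons alone could be placed on it. The part of this transcript, and of read length, in the difference was not tested.

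**Figure D3:**
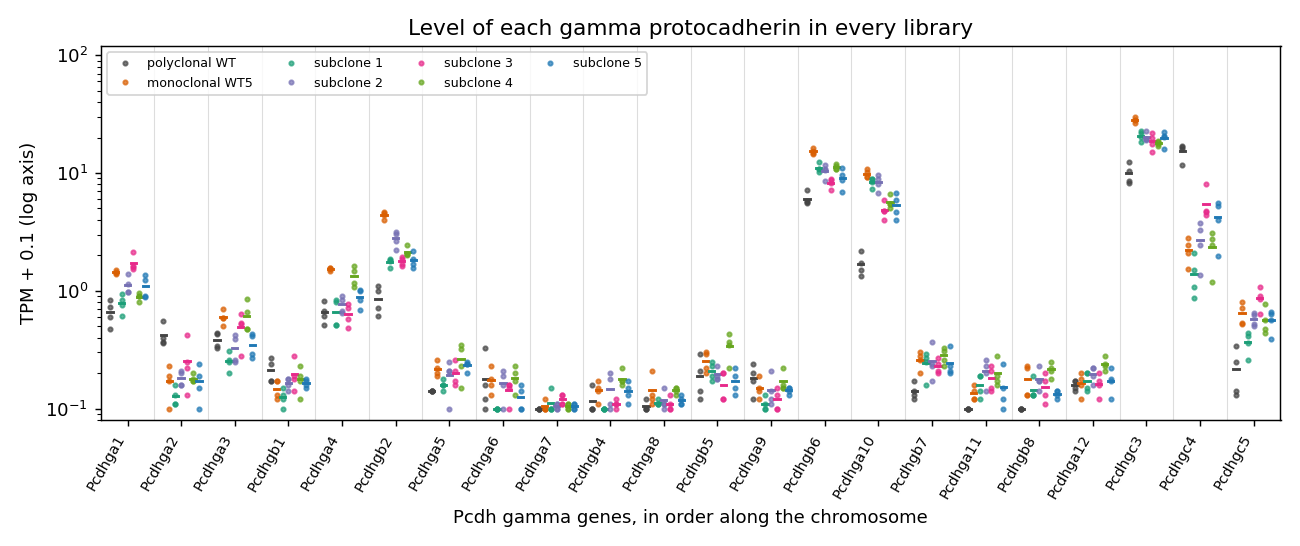
TPM plus 0.1 on a log axis for each of the 22 gamma genes, in order along the chromosome, with a point for each library, colours for the 7 groups and a short bar at each group mean. The polyclonal mean lies below the other means at Pcdhgb2, Pcdhgb6, Pcdhga10 and Pcdhgc3 and above them at Pcdhgc4.

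For the evenness of gamma use, the effective number of gamma isoforms was 4.67 ± 0.385 in polyclonal WT and 5.05 ± 0.144 in WT5 (SD, n = 4), and the libraries overlapped. It was 4.54 ± 0.0336 and 4.60 ± 0.105 without Pcdhgc4. With Pcdhgc4 counted, the leading isoforms differed, and its values carry the limit given above. Pcdhgc4, Pcdhgc3 and Pcdhgb6 took 42.8%, 27.4% and 16.6% of the summed gamma TPM in polyclonal WT, and Pcdhgc3, Pcdhgb6 and Pcdhga10 took 43.7%, 23.7% and 15.2% in WT5. With Pcdhgc4 left out, Pcdhgc3, Pcdhgb6 and Pcdhga10 led in that order in both lines. Their means were 9.84, 5.94 and 1.58 TPM in polyclonal WT and 28.1, 15.3 and 9.8 TPM in WT5.

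**Figure D4:**
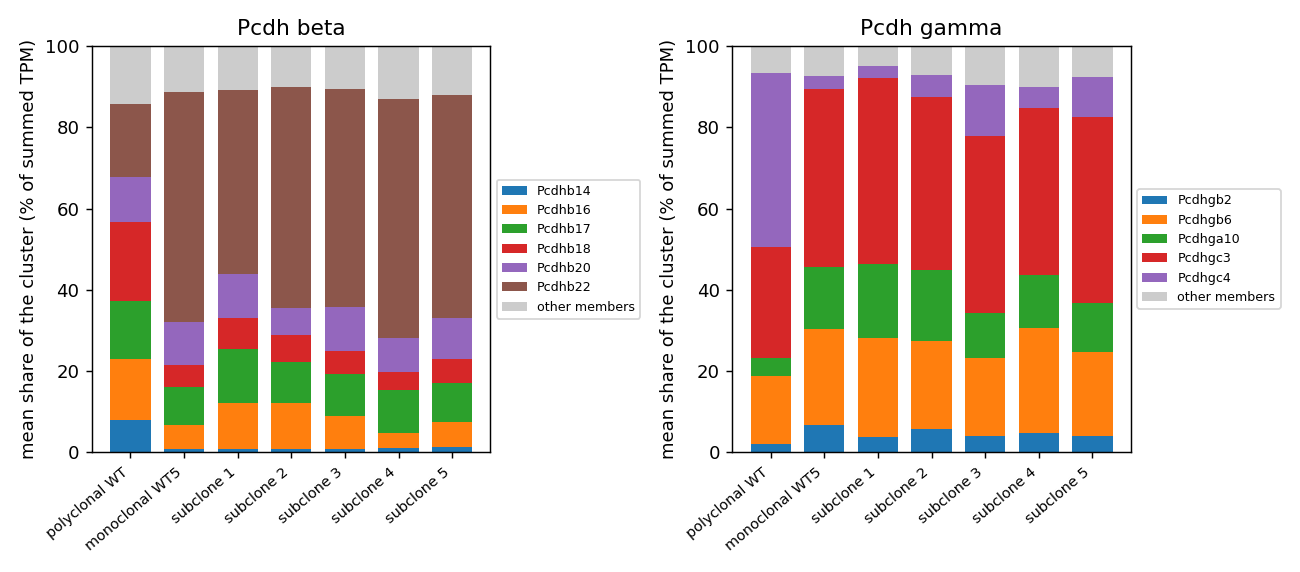
Mean share of the summed TPM of the beta (left) and gamma (right) cluster taken by each member that reached 5% in any group, over the 4 libraries of each of the 7 groups, with all other members in grey. Pcdhb22 takes 18.1% of beta in polyclonal WT and 45.2% to 58.9% in the other lines, and Pcdhgc4 takes 42.8% of gamma in polyclonal WT and 2.9% to 12.6% in the others.

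The subclones were compared with WT5 to ask whether isoform use stays as it was when a clone is cloned again. In all 5 subclones Pcdhb22 remained the only beta member at or above 1 TPM, and Pcdhgc3 and Pcdhgb6 the most abundant gamma members. The summed TPM was lower in each subclone than in WT5 for both clusters. Beta sums had subclone means of 3.74 to 5.23 TPM against 6.89 in WT5, and gamma sums 42.6 to 47.3 TPM against 64.3. The subclones were deposited in a table of their own, and whether a difference common to all 5 lies in the cells or in the separate tables cannot be told apart.

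Between 1 and 4 members passed the test against WT5 in each subclone. In subclone 1 it was 3 of 18 tested, all lower, where 2.98% of all genes were called. In subclone 2 it was 1 of 19, where 2.64% were called. In subclone 3 it was 4 of 20, 3 of them lower, where 3.53% were called. In subclone 4 it was 3 of 20, all lower, where 4.76% were called, and in subclone 5 it was 1 of 19, where 3.44% were called. Over the members tested the median difference was -0.36 to -0.57 in the 5 comparisons, against -0.04 to -0.09 over all genes. The 5 comparisons share the WT5 libraries.

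Pcdhgb2 was called lower in 4 of the 5 subclones. From 3.9 to 4.55 TPM in WT5 it was at 1.77, 1.74, 1.45 and 1.7 TPM in subclone 1, at 1.83, 1.6, 1.51 and 1.76 TPM in subclone 3, at 1.97, 2.33, 1.93 and 1.97 TPM in subclone 4 and at 1.46, 1.6, 1.76 and 2.07 TPM in subclone 5. Its log2 differences there were -1.32, -1.32, -1.04 and -1.29 (limma, adjusted p of at most 6.72e-05 in each). In subclone 2 it was at 2.94, 2.14, 2.57 and 3.08 TPM, a difference of -0.68 that did not reach the size required. No subclone library reached the lowest WT5 value, but 35.6% to 47.9% of all genes tested had no overlap with WT5 in the 5 comparisons. With centred libraries the Pcdhgb2 difference in subclone 4 was -0.95 and not called.

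Pcdhga4 was called lower in subclones 1, 2 and 3, with log2 differences of -1.25, -1.01 and -1.29 (limma, adjusted p = 0.000939, 0.000647 and 0.000885). In subclone 2 the difference was -0.93 without subclone 2 replicate 2, -0.95 without its replicate 3 and just under 1 in size without WT5 replicate 1 or 2, so the call did not hold there. Pcdhga3 was called lower in subclone 1 alone, at 0.15, 0.21, 0.1 and 0.16 TPM against 0.49, 0.49, 0.6 and 0.4 TPM in WT5, a log2 difference of -1.23 (limma, adjusted p = 0.00267). Its adjusted p was 0.0112 without WT5 replicate 3. Pcdhga10 was called lower in subclone 3, at -1.04 (limma, adjusted p = 0.000263), and its difference was -0.95 without subclone 3 replicate 2 and -0.99 without WT5 replicate 3.

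In subclone 4 the beta members Pcdhb16 and Pcdhb20 were called lower, at -1.07 and -1.004 (limma, adjusted p = 0.00382 and 0.00357). Pcdhb16 was at 0.13, 0.14, 0.11 and 0.17 TPM there against 0.33 to 0.49 TPM in WT5. Both calls were lost without WT5 replicate 2 (limma, adjusted p = 0.0133 and 0.013) and without WT5 replicate 3 (limma, adjusted p = 0.0153 and 0.0105), that of Pcdhb16 also without subclone 4 replicate 3 (adjusted p = 0.0115) and that of Pcdhb20 without subclone 4 replicate 2, where the difference was -0.87. Pcdhb22 was lower than in WT5 in each subclone, by 0.45 to 0.85 on the log2 scale, and did not reach the size required in any.

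The comparison among the subclones lies within 1 table and asks which isoforms differ between sister clones of 1 cell. By limma's F test over the 20 libraries, with a gap above 1 between the highest and lowest subclone mean, 5.07% of all 14999 genes tested were called. Of the 58 members 18 were tested and 5 were called, Pcdhb16, Pcdhga1, Pcdhga4, Pcdhgc4 and Pcdhgc5. The median gap of the members tested was 0.76 against 0.30 over all genes, and members of low level have wide gaps.

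Pcdhb16 had the smallest adjusted p of these 5. It was at 0.58, 0.54, 0.69 and 0.48 TPM in subclone 1, at 0.65, 0.57, 0.59 and 0.54 TPM in subclone 2, at 0.39, 0.31, 0.41 and 0.4 TPM in subclone 3, at 0.13, 0.14, 0.11 and 0.17 TPM in subclone 4 and at 0.2, 0.23, 0.22 and 0.3 TPM in subclone 5. Subclones 1 and 2 overlapped with each other and lay above the other 3, and subclone 4 lay below all others. How many of all genes lack overlap between subclones was not counted, here or for Pcdhga1 below. The gap was 1.54 on the log2 scale (limma F test, adjusted p = 1.85e-06). Its share of the summed beta TPM was 11.4% and 11.3% in subclones 1 and 2 and 3.7% in subclone 4.

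Pcdhga1 was highest in subclone 3, at 1.43, 1.48, 1.52 and 2.05 TPM, and lowest in subclone 1, at 0.51, 0.73, 0.66 and 0.84 TPM, a gap of 1.14 (limma F test, adjusted p = 0.000696). The other subclones lay between, with means of 0.79 to 1.02 TPM, and no library of them reached the lowest value of subclone 3. Pcdhga4 was highest in subclone 4, at 0.97, 1.54, 1.36 and 1.07 TPM, and lowest in subclone 3, at 0.62, 0.38, 0.48 and 0.67 TPM, a gap of 1.07 (limma F test, adjusted p = 0.00423). Adjusted p was 0.0241 without subclone 4 replicate 2 and 0.0206 without its replicate 3.

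The calls of the C-type isoforms Pcdhgc4 and Pcdhgc5 depended on single libraries. Pcdhgc4 was at 4.66, 4.61, 4.27 and 7.98 TPM in subclone 3, at 5.19, 5.43, 3.89 and 1.88 TPM in subclone 5 and at 0.77, 1.39, 2.01 and 0.97 TPM in subclone 1. The gap was 2.02 (limma F test, adjusted p = 0.00346). It was the only member called higher in a subclone than in WT5, in subclone 3 by 1.29 (limma, adjusted p = 0.00288, and 0.0104 without WT5 replicate 3). Among the subclones its adjusted p was 0.0125 without subclone 1 replicate 1, 0.0127 without subclone 1 replicate 4 and 0.0102 without subclone 3 replicate 4. Pcdhgc5 had means of 0.268 to 0.767 TPM and a gap of 1.24 (limma F test, adjusted p = 0.0079), and the call was lost when any of 14 libraries was left out, with adjusted p between 0.0103 and 0.0277. The third C-type isoform, Pcdhgc3, had subclone means of 17.7 to 20.6 TPM and a gap of 0.21 (limma F test, adjusted p = 0.49).

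**Figure D5:**
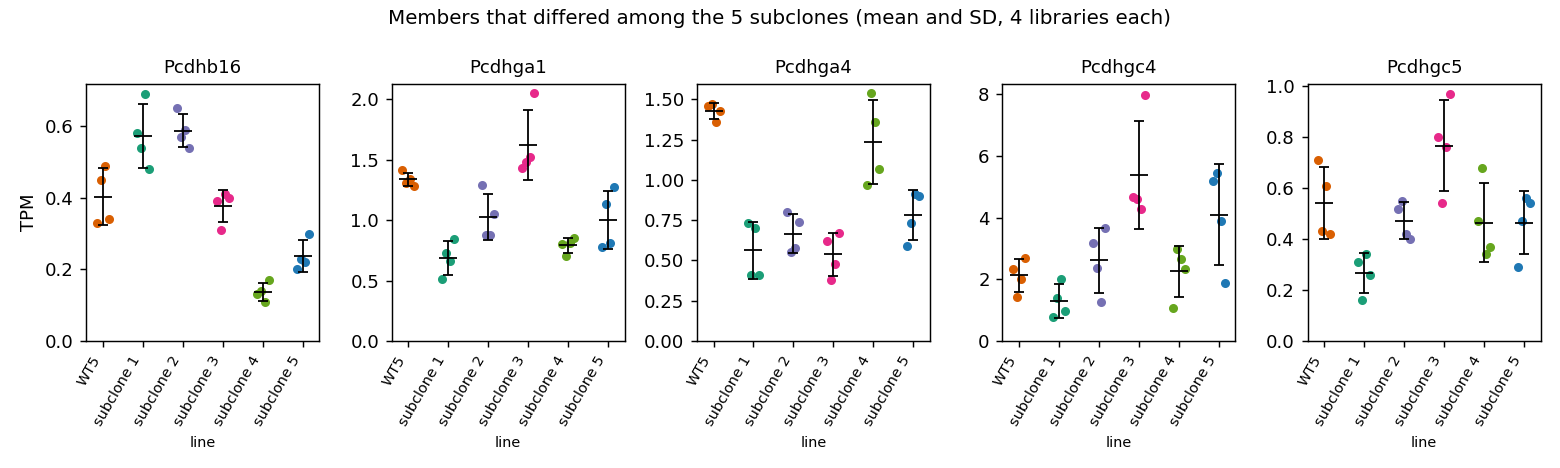
TPM in WT5 and subclones 1 to 5 for the 5 members called among the subclones, with a point for each of 4 libraries and black marks for the mean and SD. Pcdhb16 runs from a mean of 0.138 TPM in subclone 4 to 0.588 in subclone 2, and Pcdhgc4 from 1.28 in subclone 1 to 5.38 in subclone 3.

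Genes known to act on these clusters were read from lists of regulators. Of 15 genes for chromatin loops and cohesin, all were tested between WT5 and polyclonal WT and 1 was called, against 33.1% of all genes. It was Wiz, a zinc finger protein of the G9a complex, which rose from 43.9 ± 2.18 to 113 ± 2.29 TPM (SD, n = 4; log2 difference 1.36, limma, adjusted p = 1.66e-09). Ctcf, the loop anchor, had means of 61.8 and 93.9 TPM and a log2 difference of 0.60. The list's median was 0.43 against 0.09 over all genes.

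Of 15 genes for DNA methylation and silencing, 14 were tested and 2 called in that comparison, against 33.1% of all genes, with a median of 0.17. Smchd1, a structural maintenance protein known for silencing the inactive X chromosome and clustered protocadherins, fell from 112 ± 7.15 to 54.7 ± 1.66 TPM (SD, n = 4; log2 difference -1.03, limma, adjusted p = 3.42e-08). Dnmt1, the maintenance methyltransferase, had means of 55.6 and 98.8 TPM and a difference of 0.83, and the de novo enzymes Dnmt3a and Dnmt3b had differences of 0.57 and 0.87, none of them called for size. Among the subclones no gene of either list was called, where 5.07% of all genes were. Gaps were 0.16 for Ctcf, 0.08 for Wiz, 0.16 for Smchd1, 0.18 for Dnmt1, 0.41 for Dnmt3a and 0.41 for Dnmt3b. Against WT5, the only gene called in a subclone was the demethylation enzyme Tet1, higher in subclone 1 at 0.50 against 0.14 TPM. In that comparison 2.98% of all genes were called.

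The protocadherins outside the clusters have their own promoters and no shared constant exons. Of 12 listed, 4 were tested between WT5 and polyclonal WT and 3 called, where 33.1% of all genes were called. The median of the 4 was -1.73. Each called gene passed the filter on low values through a single line, so the filter itself favours such calls. Pcdh1 rose from 0.06 ± 0.0365 to 6.88 ± 0.621 TPM (SD, n = 4; log2 difference 5.47, limma, adjusted p = 3.13e-09). Pcdh18 fell from 2.75 to 0.015 TPM, and Pcdh10 from 0.745 TPM to a value listed at 0 in all 4 libraries. Pcdh1 also differed among the subclones, from a mean of 3.74 TPM in subclone 5 to 10.6 TPM in subclone 2 (gap 1.49, limma F test, adjusted p = 9.35e-08).

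Of 16 genes for intracellular partners and cleavage of the clustered protocadherins, 14 were tested between WT5 and polyclonal WT, with a median of 0.34. Only 1 was called, against 33.1% of all genes. It was Wasf1, a subunit of the actin-regulating WAVE complex that their cytoplasmic tails bind, which fell from 18.4 to 9.01 TPM (log2 difference -1.02). Cyfip2, another WAVE subunit, differed among the subclones by a gap of 2.00 (limma F test, adjusted p = 1.75e-06), with the highest mean, 1.32 TPM, in subclone 1. Of 16 genes that flank the clusters or lie between them, 14 were tested and 3 called, all higher in WT5, with a median of 0.56. Of all genes, 33.1% were called and 15.2% called higher. The 3 flanking genes called were Slc35a4 (log2 difference 2.73), Ndufa2 (1.11) and Fchsd1 (1.03). Taf7, which lies between the beta and gamma clusters, had means of 10.6 and 12.3 TPM and Diaph1, just downstream of gamma, 27.5 and 38.8 TPM, and neither was called. No flanking gene was called in any subclone comparison, where only 2.64% to 5.07% of all genes were called, so few calls could be looked for among 14 genes.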

How the data were processed

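RNA-seq libraries of polyclonal WT, WT5 and 5 subclones (4 each) were analysed from the 2 tables of TPM that the authors deposited, 1 for polyclonal WT and WT5 and 1 for the subclones. Per the labels and methods, reads were aligned with STAR 2.7.3a to GRCm38 and quantified with RSEM 1.3.1, and base calling used CASAVA 1.8. TPM is scaled by length and to a fixed total in each library, so read depth is unknown. Strand handling is not given in the sources used here, so antisense reads cannot be told apart.

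Groups were taken from the labels. Genes with a mean of at least 0.1 TPM over the libraries compared were tested with limma 3.58.1 in R 4.3.3 (trend and robust variance, two-sided) on log2(TPM + 0.1), which understates changes of low genes. The study's own scale, z-scores of log2(TPM), drops a gene at 0 in any library and was used as an alternative. Pcdh gene structure came from GENCODE annotation on GRCm38. The limma steps were tested on simulated data. Replicate numbers did not pair the libraries. Named were members with a group mean of at least 1 TPM, members called in any comparison and the C-type isoforms, and of each list up to 4 called genes by size together with Ctcf, Dnmt1, Dnmt3a, Dnmt3b, Smchd1, Wiz, Taf7 and Diaph1. Members and lists were chosen with earlier results of these data known. One gene that shares the symbol Pcdha11 with another was kept as a separate member. Python, pandas and matplotlib served for tables and plots. One called gene of the regulator lists is counted but not reported here.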

Additional observations from a re-analysis of the deposited data

Results flagged for a closer look

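Members that differed between subclones in their distance from WT5, by the F test among the subclones, were Pcdhb16 (log2 gap 1.54), Pcdhga1 (1.14), Pcdhga4 (1.07), Pcdhgc4 (2.02) and Pcdhgc5 (1.24).

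A single library stood apart from the other 3 of its group in 8 of 141 groups of 4 examined, where chance gives about 1 in 20. Pcdhb20 was at 0.4 TPM in subclone 1 replicate 2, against 0.58 to 0.61 in the others. Pcdhb22 was at 2.03 TPM in subclone 4 replicate 1, against 2.24 to 2.27. Pcdhga1 and Pcdhgc4 were both high in subclone 3 replicate 4, at 2.05 TPM against 1.43 to 1.52 and at 7.98 TPM against 4.27 to 4.66. Pcdhgb2 was at 2.33 TPM in subclone 4 replicate 2, against 1.93 to 1.97. Pcdhgb6 was at 7.01 TPM in polyclonal WT replicate 3, against 5.46 to 5.68. Pcdhgc3 was at 22.61 TPM in subclone 2 replicate 1, against 18.97 to 19.29. The effective number of gamma isoforms was 5.48 in subclone 2 replicate 4, against 5.15 to 5.20.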

How the results depend on the processing

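Shares of all genes called at the same setting follow in brackets. Between WT5 and polyclonal WT 18 members were called (33.1%). The number was 11 with a pseudocount of 1 (21%) and 10 at a mean TPM of at least 1 (28.1%). It was 5 on the study's z-score scale (5.45%), where sizes are in z, and 17 to 18 with a library left out (31.9% to 33.2%). For subclones 1 to 5 against WT5 3, 1, 4, 3 and 1 members were called (2.64% to 4.76%). With a pseudocount of 1 it was 0, 0, 1, 0 and 0 (1.11% to 2.02%). On the z-score scale it was 0 in each (0.133% to 0.21%). At a mean TPM of at least 1 it was 1 in subclones 1 and 4 (2.26% and 3.76%). With centred libraries it was 0 in subclones 2 and 4 (2.54% and 5.06%). With no requirement on size it was 7, 4, 9 and 6 in subclones 1, 2, 4 and 5 (27.7%, 25.1%, 38.1% and 19.2%). With a library left out it was 2 to 3, 0 to 1, 2 to 4, 1 to 3 and 1 to 3 (2.4% to 4.65%). The last reached 3 without subclone 5 replicate 4 (3.31%). Among the subclones 5 members were called (5.07%). It was 1 with a pseudocount of 1 (2.24%) and 2 at a mean TPM of at least 1 (3.73%). It was 0 on the z-score scale (0.62%) and 3 to 6 with a library left out (4.81% to 5.13%). The cause was not tested.

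Same-numbered libraries did not deviate together: correlations over genes were -0.22 to 0.33 in 21 pairs of groups, and none had more than 2 of 4 over 0.1. With the number as a replicate block, 17, 2, 1, 4, 1 and 1 members were called in the 6 comparisons with 2 groups and 2 among the subclones, Pcdhb16 and Pcdhga1. Of all genes, 32.2%, 2.59%, 2.59%, 2.67%, 4.33% and 3.26% were then called, and 4.87% among the subclones.

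The effective number of isoforms over members with a mean of at least 0.1 TPM was 7.28 and 3.97 for beta in polyclonal WT and WT5 and 4.84 for gamma in WT5. Without Pcdhgc4, chosen after seeing the data, it was 4.60 for gamma in WT5, and the gamma sums were 20.5 and 62.2 TPM.

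Small differences that were never called changed sign. For Pcdhb18 in subclone 1 and Pcdhb16 in subclone 3 they were 0.015 and 0.030 with centred libraries and ran from -0.11 to 0.10 and from -0.14 to 0.016 with a library left out. In subclone 4, Pcdhgc4 and Pcdhga3 were at -0.015 and -0.049 on the z-score scale and ran from -0.13 to 0.34 and from -0.17 to 0.12 with a library left out.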

Other observations

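Within the 3 cluster spans the annotation places 22 further genes, of which 13 were listed at 0 in every library and 2 reached a group mean of 0.5 TPM. BC037039, an antisense gene over Pcdhgc3, had a mean of 0.13 TPM in polyclonal WT, 1.06 in WT5 and 0.418 to 0.92 in the subclones. Gm26672, on the strand opposite to the gamma genes and overlapping exons of 5 of them, had 0.05 TPM in polyclonal WT, 0.61 in WT5 and 0.278 to 0.495 in the subclones. Without strand information their reads and those of the gamma genes cannot be told apart.

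The rank order of the members was compared between the 7 lines, which are all of 1 lineage. Over the 22 beta members Spearman's rho between group means was 0.726 to 0.812 for polyclonal WT against the other 6 lines and 0.895 to 0.965 among those 6. Over the 22 gamma members it was 0.773 to 0.868 and 0.892 to 0.97. Members within a cluster share exons or similar sequence, and the low members are close to 0 in all lines. The polyclonal libraries were read at another length and time than those of WT5. Line and sequencing run therefore cannot be told apart in these correlations with polyclonal WT.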
